A study of Mus musculus with 4 samples.

Results

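The 10 Frizzled receptor genes, Fzd1 to Fzd10, were looked up among the regions that chromatin immunoprecipitation and sequencing (ChIP-seq) with a DNMT3B antibody gave in lung metastases formed by 4T1, a mammary tumour cell line of BALB/c mice known for spreading to the lung. A gene was counted as carrying a narrow region when the MACS list of narrow regions named it as the nearest or an overlapping gene, and as carrying a broad island when the SICER list of broad islands was paired with it. All 10 members are among the 21900 protein-coding genes of the RefSeq table against which names were matched. The study comprised 2 DNMT3B ChIP libraries and 2 input libraries made without an antibody, each kind with the lung labels 3 and 5, all from lung metastases of the 4T1 line and BALB/c background with no treatment or genetic change named. 4T1 is a single cell line, the sources used here do not give how tumour chromatin was separated from that of the host lung, and no label says whether the lung labels stand for separate mice.

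The lists hold positions and gene names for the whole series and no read count, score or p-value. The depth of the libraries is unknown, no value can be assigned to any of them, and nothing below can be set against a spread between replicates. There were 1705 distinct MACS regions and 8242 SICER islands. The name under which the island list was deposited marks it as a top selection, with no statement of what was ranked or left out. A gene without an island is thus one without an island in that selection, and the shares of genes with an island given below hold for it alone. The name of the MACS list appears to mark a p-value cutoff, and how strict its calls are cannot be read from positions alone.

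Frizzled proteins are membrane receptors that bind Wnt ligands through a cysteine-rich domain outside the cell. With the co-receptors Lrp5 and Lrp6 they stabilise beta-catenin, and with other partners they set planar cell polarity. DNMT3B adds methyl groups to cytosines that had none, mostly at CpG dinucleotides, and a ChIP region records where the antibody enriched DNA, not whether the DNA there was methylated. Most Frizzled genes are short and have few introns: the members' median length was 4593.5 bp, against 17146.0 bp over all protein-coding genes.

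Of the 10 Frizzled genes, 4 carried both a narrow region and an island (Fzd1, Fzd2, Fzd5 and Fzd9), 1 carried an island only (Fzd7) and 5 carried neither (Fzd3, Fzd4, Fzd6, Fzd8 and Fzd10). None carried a narrow region without an island. Over all protein-coding genes, 6.14% were named by a narrow region, 17.2% by an island and 2.46% by both, while 79.1% were named by neither. Of the 5 members with an island 4 had a narrow region, as 14.3% of all island genes did and 12.1% of those with transcripts under 10 kb. Of the 4 members with a narrow region all 4 had an island, as 40.0% of all such genes did. All 5 Frizzled islands covered the start of their gene. An island of its own covered the start of 5.33% of all protein-coding genes, of 31.0% of the 3771 with an island, and of 46.5% of the 1016 island genes with transcripts under 10 kb. These are descriptions with no test, since a list of 10 genes in a single pair of region lists has no replicate.

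The sequences before 4 of the gene starts come from members whose start an island covered in the deposited positions and from a member with no call. They are the 250 bases upstream of the start in RefSeq (build GRCm38.p6, the C57BL/6J reference and not BALB/c), 5′ to 3′ on the gene's strand, with each CpG in capitals. Fzd1 and Fzd9 carried both calls, with the fewest and the most CpGs among the members whose sequence could be read, Fzd7 carried an island only and Fzd10 neither call. Their coordinates are those of GRCm38.p6. The deposited gene position equals that of the build for Fzd1 but not for Fzd7 and Fzd9, whose coordinates cannot be set beside the deposited regions. For Fzd10 the island list gives no gene position.
Fzd1 (chr5:4758217-4758466, minus strand): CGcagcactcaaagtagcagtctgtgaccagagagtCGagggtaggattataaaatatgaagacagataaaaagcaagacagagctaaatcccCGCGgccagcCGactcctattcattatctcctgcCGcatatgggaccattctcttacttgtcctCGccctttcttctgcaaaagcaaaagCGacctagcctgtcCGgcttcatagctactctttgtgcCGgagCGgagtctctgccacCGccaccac
Fzd9 (chr5:135251048-135251297, minus strand): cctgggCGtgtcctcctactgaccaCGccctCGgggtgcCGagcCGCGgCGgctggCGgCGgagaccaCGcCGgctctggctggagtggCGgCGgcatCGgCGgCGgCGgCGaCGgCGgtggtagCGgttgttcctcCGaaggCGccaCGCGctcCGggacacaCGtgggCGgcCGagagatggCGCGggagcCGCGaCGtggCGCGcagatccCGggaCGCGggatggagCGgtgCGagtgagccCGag
Fzd7 (chr1:59481897-59482146, plus strand): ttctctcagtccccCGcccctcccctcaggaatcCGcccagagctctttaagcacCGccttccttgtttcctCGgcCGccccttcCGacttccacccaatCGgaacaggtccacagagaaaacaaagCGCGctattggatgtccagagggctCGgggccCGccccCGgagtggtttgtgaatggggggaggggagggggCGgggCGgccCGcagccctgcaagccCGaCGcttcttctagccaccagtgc
Fzd10 (chr5:128600856-128601105, plus strand): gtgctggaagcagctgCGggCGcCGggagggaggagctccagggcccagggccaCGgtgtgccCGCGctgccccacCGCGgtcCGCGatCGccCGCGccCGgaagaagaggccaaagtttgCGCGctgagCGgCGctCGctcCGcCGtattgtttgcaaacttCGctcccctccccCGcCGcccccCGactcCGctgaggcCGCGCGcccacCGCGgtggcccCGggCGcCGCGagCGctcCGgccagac

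The table held such a sequence for 6 members. Fzd1 had 12 CpGs in the 250 bases, more than 55.1% of 21263 protein-coding promoters, and a GC content of 51.2%. Fzd7 had 17 CpGs and 65.2% GC, and Fzd5 had 32 CpGs and 76.4% GC. Fzd9 had 42 CpGs, more than 98.9% of promoters, so its promoter lay near the top of the genome's range while that of Fzd1 lay near the middle. Of the members with neither call, Fzd4 had 25 CpGs and Fzd10 had 37, more than 86.2% and 97.2% of promoters. The CpG counts of members with and without an island thus overlapped. The median was 14 CpGs for the 1239 promoters of genes with an island over the start and 15 for genes with an island elsewhere. It was 8 for genes without an island, against 10 for all promoters. The median was thus no higher with an island over the start than with one elsewhere. Promoters were classed by gene (1239 promoters of 921 genes), so some may belong to starts that no island covered. Gene length was not taken into account. The GC box, GGGCGG on either strand and the core of the motif that Sp1 binds, occurred in 42.6% of all promoters. It occurred 9 times in Fzd5, 7 in Fzd4, 6 in Fzd7 and 1 time each in Fzd9 and Fzd10. The letters of the GC box did not occur in the 250 bases of Fzd1.

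**Figure D1:**
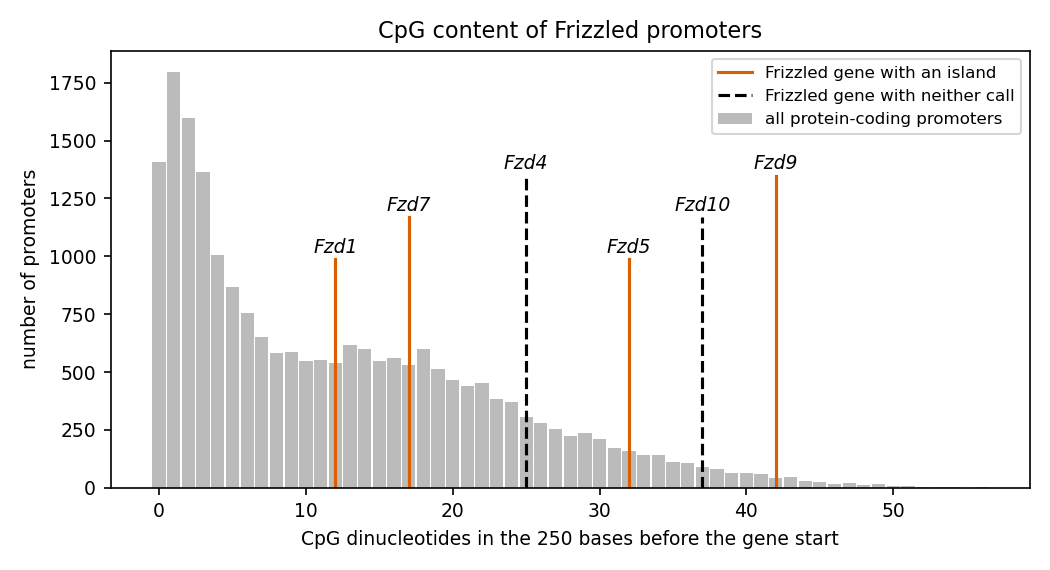
Number of CpG dinucleotides in the 250 bases before the gene start (x axis) for all 21263 protein-coding promoters (grey bars, number of promoters on the y axis) and for 6 Frizzled genes (vertical lines, whose height has no meaning; solid for genes with an island, dashed for genes with neither call). The solid lines stand at 12, 17, 32 and 42 CpGs and the dashed lines at 25 and 37, so the kinds overlap.

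By sequence, the vertebrate Frizzleds fall into 4 known subfamilies, and the islands were spread over 3 of them. These subfamilies were used for grouping after the calls had been seen. In the subfamily of Fzd1, Fzd2 and Fzd7, all 3 genes carried an island and 2 a narrow region. Fzd5 carried both calls and its close relative Fzd8 neither. In the subfamily of Fzd4, Fzd9 and Fzd10, Fzd9 alone was called. Fzd3 and Fzd6, which act in planar cell polarity in the mouse, carried neither call.

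Fzd1, a receptor of the beta-catenin branch on chromosome 5, was the member with 2 narrow regions. Its transcript was deposited from 4753838 to 4758216 on the minus strand, and its island of 5800 bp lay from 4754200 to 4759999. The island began 1783 bp upstream of the gene start and ended 362 bp short of the gene end, covering 91.8% of the transcript. Both narrow regions lay inside the gene and inside the island, with no intron named. They lay from 4756870 to 4757290, which is 926 to 1346 bp from the gene start, and from 4756570 to 4756750, which is 1466 to 1646 bp from it. They are 120 bp apart, and since positions here are rounded to 10 bp, their separation is resolved.

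The 2 Fzd1 regions also recurred in the deposited list. The region nearer the gene start stood on 12 identical lines and the other on 4. That of Fzd9 stood on 3 lines, and those of Fzd2 and Fzd5 on 1 each. Of all 1705 regions, 863 (50.6%) stood on a single line and 32 (1.88%) on 12 or more, with a maximum of 55. The sources used here do not say why lines repeat, and each region was counted once. Where positions are rounded to 1000 bp, as at Fzd9, separate regions close together could not be told apart from repeated lines.

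Fzd2, a receptor of Wnt5a and other Wnts on chromosome 11, carried an island and a narrow region that did not touch as deposited. The transcript was deposited from 102465744 to 102469372 on the plus strand. The island, from 102465400 to 102467799, was the narrowest of the 5 at 2400 bp. It reached 344 bp upstream of the gene start and covered 56.6% of the transcript from that end. The narrow region stood at 102468000, 2256 bp from the gene start and 201 bp past the island's edge. Positions on this part of the chromosome are rounded to 1000 bp, so whether this region lies in the island is not resolved.

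Fzd7, which intestinal stem cells of the mouse use to respond to Wnt, carried an island and no narrow region. On chromosome 1, its transcript was deposited from 59538990 to 59543799 on the plus strand and its island from 59537800 to 59541999. This island of 4200 bp began 1190 bp upstream of the gene start and covered 62.6% of the transcript, leaving the last 1800 bp uncovered. No other region or island of either list lay within 100 kb of the gene.

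Fzd5, also on chromosome 1 and a receptor of the beta-catenin branch, was the longest member with a call. Its transcript was deposited from 64777131 to 64784324 on the minus strand. The island of 4800 bp, from 64781200 to 64785999, reached 1675 bp upstream of the gene start and covered 43.4% of the transcript. The narrow region, from 64782100 to 64782300, lay inside the island and 2024 to 2224 bp from the gene start, with positions rounded to 100 bp. The nearest island paired with another gene, Plekhm3, lay 51676 bp away.

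Fzd9, whose human counterpart lies in the chromosomal segment deleted in Williams syndrome, had the widest island. The transcript was deposited on chromosome 5 from 135724807 to 135726917 on the minus strand, and the island, from 135714800 to 135728399, was 13600 bp wide. That is wider than 93.7% of the islands in the list, whose median was 4800 bp. It covered the whole gene, began 1482 bp upstream of it and ran on for 10007 bp past the gene end, so that 15.5% of the island lay in the gene. The narrow region, from 135726000 to 135727000, ran from 83 bp upstream of the gene start to 917 bp into the gene and lay inside the island. Its positions are rounded to 1000 bp, so on which side of the start it is centred is not resolved, but a shift of 1 rounding step either way leaves it in the island. The deposited wording gives an overlap of 91.8% of Fzd9. In each of the 255 partial overlaps of the list this percentage gave a whole number of bases of the region (within 1e-06 bp), and here the region covers 918 bp of the 2110 bp transcript.

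**Figure D2:**
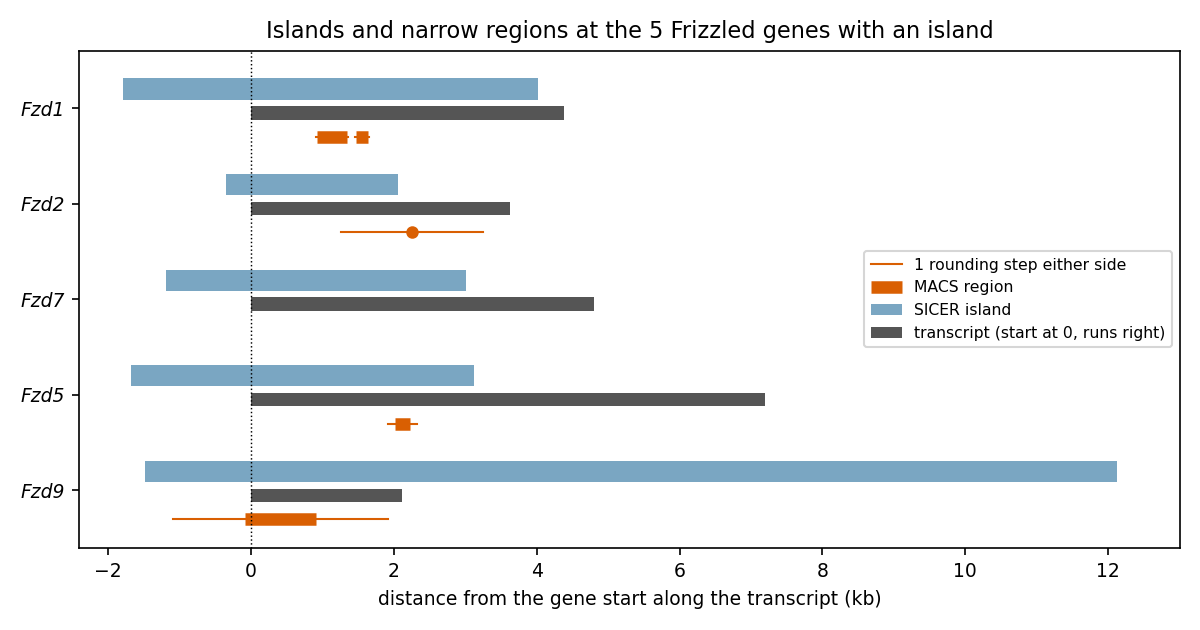
Distance from the gene start along the transcript in kb (x axis, negative upstream) for the 5 Frizzled genes with an island, showing the island, the transcript and the MACS regions, with thin lines for 1 rounding step of the deposited position either side. All 5 islands cross the gene start, the island of Fzd9 runs 10007 bp past the gene end, and the region of Fzd2, drawn as a dot, stands 201 bp past its island.

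Set side by side, the 5 islands shared a gene start and differed in reach. Their widths were 2400, 4200, 4800, 5800 and 13600 bp, for Fzd2, Fzd7, Fzd5, Fzd1 and Fzd9. They reached 344 to 1783 bp upstream of the gene start, with a median of 1482 bp. The covered share of the transcript was 100% for Fzd9, 91.8% for Fzd1, 62.6% for Fzd7, 56.6% for Fzd2 and 43.4% for Fzd5. In the 1016 island genes with transcripts under 10 kb the median was 35.4%, with quartiles of 0.0% and 86.9%. The members' shares were higher than those of 54.2% (Fzd5) to 82.0% (Fzd9) of these genes. All 5 members have the gene start in an island, as 46.5% of these genes do. Fzd9 was the 1 of 5 members with the gene end in the island, as 34.4% of those genes had, and it was covered whole, as 18.0% of them were.

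**Figure D3:**
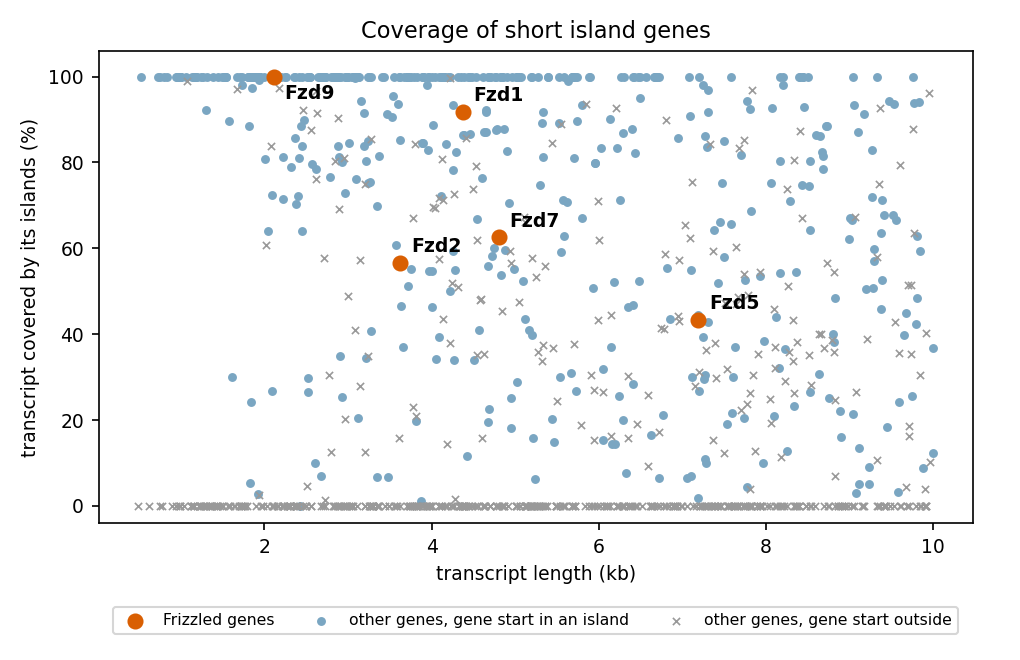
Share of the transcript covered by the islands paired with the gene (y axis, %) against transcript length (x axis, kb) for the 1016 island genes with transcripts under 10 kb; large points are the 5 Frizzled genes, dots other genes with the start in an island and crosses other genes with the start outside. The Frizzled genes stand between 43.4% and 100%, all above the median of 35.4%. That median includes genes whose start no island covers.

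The 5 narrow regions of the Frizzled genes lay inside the transcript or across its start, and 4 of them lay in the island of the same gene. Of all 1705 narrow regions, 30.6% had 1 bp or more in an island. The 1705 include regions of the 806 protein-coding genes with a narrow region and no island, whereas these 5 all belong to genes with an island. By the middle of the region, that of Fzd9 lay 417 bp from the gene start and those of Fzd1, Fzd5 and Fzd2 between 1136 and 2256 bp. The 4 regions of Fzd1, Fzd5 and Fzd2 were thus centred beyond the first kilobase, and 1 rounding step either way leaves that of Fzd2 between 1256 and 3256 bp. For island genes with transcripts under 10 kb, 50.6% of 160 narrow regions were centred in the first kilobase, 22.5% upstream and 19.4% between 1 kb and the gene end. These shares use positions as deposited, rounded to as much as 1000 bp, so the place of some of these regions is not resolved.

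A narrow region inside the gene's own island was found at Fzd1, Fzd5 and Fzd9, that is at 3 of 10 Frizzled genes, against 0.986% of all protein-coding genes (216 genes). Most genes lack 1 or both calls, so the share among genes with both is the closer one. Among genes with both calls, such a region was found at 3 of 4 Frizzled genes and at 216 of 538 protein-coding genes. In the other 76 pathway genes described below it was found at 1, the ligand gene Wnt7a.

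Gene length and chromosome bear on how often a gene is named, so the members were also read against genes like them in each. Under 5 kb, 3 of the 6 Frizzled genes had a narrow region, 4 an island over the gene start and 3 both calls. Over all genes of that length, 3.09% had a narrow region, 8.68% an island, 4.58% an island over the gene start and 0.951% both calls. Between 5 and 20 kb, Fzd5 had both calls and Fzd4 neither, where 6.27% of genes had a narrow region, 18.3% an island and 2.29% both. The 2 members between 20 and 100 kb, Fzd3 and Fzd6, had no call, where 7.77% of genes had a narrow region, 21.2% an island and 3.38% both.

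By chromosome, 31.5% of genes had an island on chromosome 11 (Fzd2), 27.7% on chromosome 5 (Fzd1, Fzd9 and Fzd10) and 19.4% on chromosome 1 (Fzd5 and Fzd7). The share was 20.7% on chromosome 15 (Fzd6), 9.40% on chromosome 14 (Fzd3), 9.01% on chromosome 7 (Fzd4) and 4.70% on chromosome 18 (Fzd8). Of the 5 members with neither call, 3 thus lay on chromosomes where under 10% of genes had an island. 4T1 cells are aneuploid and copy number was not measured. The part of the chromosome in the members' calls was not tested.

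Each island is paired with a single gene, so an island close to a member could stand under a neighbour's name. The neighbouring protein-coding genes on either side of each member, in the order of the RefSeq table, were therefore looked up. Of these 20 neighbours, 5 had an island and 4 a narrow region, where 17.2% and 6.14% of all protein-coding genes had them. Calls paired with other kinds of gene were not part of this lookup. For Fzd10, both neighbours had islands, 2 in Tmem132d and 1 in Piwil1, and for Fzd3 the neighbour Extl3 had 2. All of these overlapped the neighbour itself. For Fzd8, the neighbour Wac had a narrow region. The neighbours of Fzd4 and Fzd6 had no call. Fzd9 stood among called neighbours, with Fkbp6 carrying both calls and Baz1b a narrow region, and the nearest other island lay 39483 bp from it.

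The same calls were counted in the other genes of the pathway. Of 76 genes in 5 lists, 30 had an island (39.5%), 14 a narrow region (18.4%) and 10 both (13.2%), and an island covered the gene start in 6. In the Frizzled receptors the counts were 5, 4 and 4 of 10, with 5 gene starts covered. The receptor genes are also shorter, with a median length of 4593.5 bp, against 37292.5 bp for the 76 genes. Islands covered the gene start in 46.5% of island genes with transcripts under 10 kb, against 31.0% of all island genes. Counted over all protein-coding genes, with or without an island, the share was 4.58% under 5 kb, against 5.33% at any length. The part of gene length was not tested. The lists were drawn up with earlier results of these data known, and the difference between them was not tested.

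Among 19 Wnt ligands, 11 had an island and 3 a narrow region. Wnt9b had 6 islands over 84.9% of its transcript, and Wnt3 had 8 over 44.2%, without its gene start. Wnt7a had 5 islands. Its gene start lay in an island of its own, and its narrow region shared 1 bp or more with an island of its own. Whether that was the same island was not looked up. Among 13 co-receptors and other Frizzled partners, 6 had an island and 3 a narrow region. Lrp5, the co-receptor that binds Wnt beside Frizzled, had 11 islands over 51.9% of its transcript, the gene start included, and no narrow region. Lrp6 had no call. Ptk7, a planar cell polarity receptor, also had its start in an island. The narrow region of Ryk, a Wnt-binding receptor, lay in an intron, and the gene had no island.

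Among 13 secreted antagonists, 1 had an island and 3 a narrow region. Sfrp1, which resembles the Wnt-binding domain of Frizzled, had a narrow region across an edge of the gene and an island outside it. Frzb, of the same family, had a narrow region 46 bp upstream. Of 11 genes that control Frizzled turnover or bind R-spondins, 4 had an island and 1 a narrow region. Znrf3, a ligase that removes Frizzled from the cell surface, had 2 islands over 3.44% of its transcript, and Rnf43, a ligase of the same kind, had no call. Among 20 transducers, 8 had an island and 4 a narrow region. Dvl1 and Dvl3, which bind the inner face of Frizzled, had a narrow region each, outside their islands by the rounded positions as deposited. No island covered the gene start of either.

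**Figure D4:**
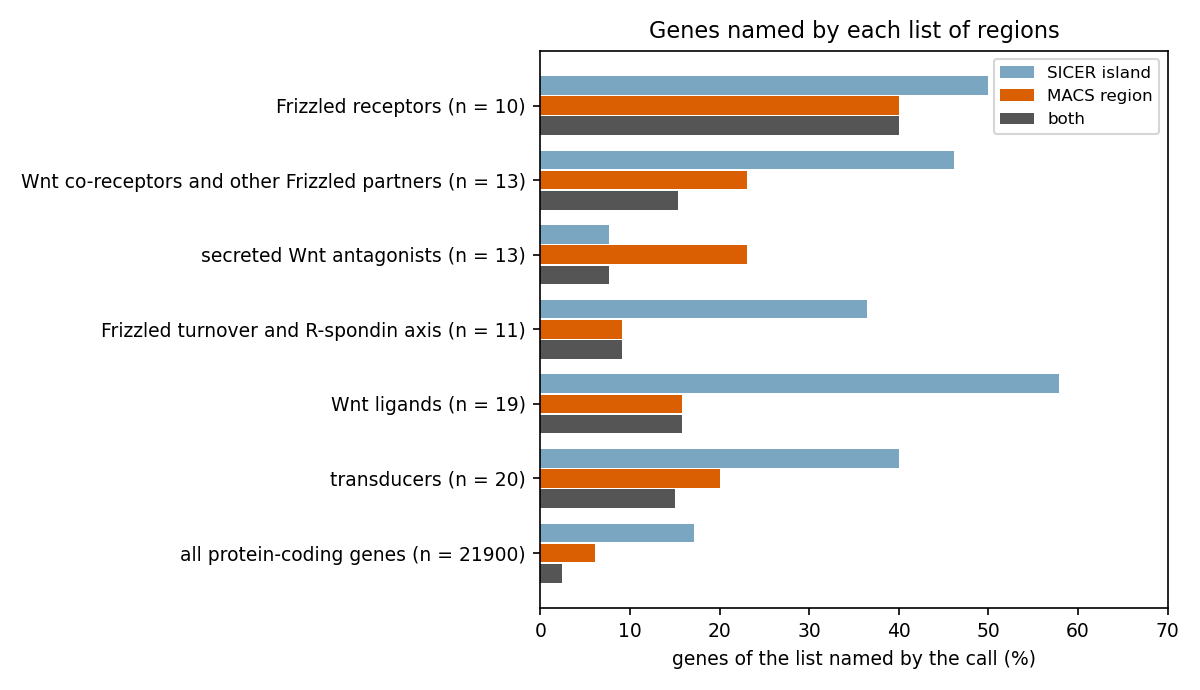
Share of genes in % (x axis) named by a SICER island, a MACS region or both, for the Frizzled receptors, 5 other lists of the pathway and all protein-coding genes, with the number of genes in each. The Frizzled receptors stand at 50%, 40% and 40%, and all protein-coding genes at 17.2%, 6.14% and 2.46%.

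For each member with an island, the protein-coding genes most like it were those with equal numbers of islands and narrow regions and the smallest summed difference in covered share (as a fraction) and log10 transcript length. Fabp5 was nearest to Fzd2, with 1 island over 54.8% of 4005 bp and 1 narrow region (difference 0.0615, of 199 candidates), and Iba57 to Fzd5, with 38.2% of 8374 bp covered (0.118). Dnajc28 was nearest to Fzd7, with 60.0% of 4743 bp covered and no narrow region (0.0319, of 1740 candidates). Fzd1 had the least close match, Tmem191c, with 2 narrow regions and 100% of 2362 bp covered (0.350, of 27 candidates).

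The submitters' processing notes name mm10, the build also called GRCm38, but the gene positions in the list differ from it at 4 of the 5 members. The gene ends were equal for Fzd1 and differed by 46574 bp for Fzd5, 56844 bp for Fzd7, 475870 bp for Fzd9 and -138686 bp for Fzd2 (list minus GRCm38). Transcript lengths were equal to the RefSeq gene lengths for all 5, so distances from the gene start do not rest on the choice of build as long as regions and genes stand in the same positions. For Fzd1 the calls hold in either set of positions. Against GRCm38 gene positions, the other members with an island would have no island on the gene, and of the 10 members only Fzd1 and Fzd5 would have a narrow region. For Fzd5 these would be 2 other regions, 250 to 650 bp from the gene start, which the list places at 2810408I11Rik. The start of that gene implied by the deposited distance differs from GRCm38 by 46575 bp, as at Fzd5, so the list's own gene positions are in 1 frame there. Whether every region stands in that frame was not tested. The share of all protein-coding genes called in GRCm38 positions was not counted, so the members' counts in them have no background beside them.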

How the data were processed

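ChIP-seq with an antibody against DNMT3B and input sequencing were done on lung metastases of 4T1 cells. Per the submitters' processing notes, Bowtie2 (listed as version 2.10) made the alignments, and MACS (listed as version 1.4) and SICER the region calls. The sources used here do not say whether libraries were pooled. The authors deposited base positions, distances and gene names only, so no test between libraries, interval or detection floor could be made.

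The 4304 MACS lines were reduced to 1705 distinct regions. Their positions carry at most 6 significant digits, in steps of 10, 100 or 1000 bp. An end written as a question mark was set to the start. SICER islands lie in steps of 200 bp, and the list pairs islands with genes within 10 kb. Gene names were matched to the RefSeq table (accession first, then symbol, then unambiguous synonym) for 1703 regions and 8238 islands. Overlap required 1 bp. Positions are given as deposited, with distances from the transcript positions of the SICER list. CpGs were counted in the 250 bases before each start in RefSeq promoter sequences.

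All 10 Frizzled genes are named. Other pathway genes come from 5 lists of 76 genes, and for each member with an island the 3 most similar genes were found; the nearest match of Fzd9 is not reported here. Members, lists and rules were chosen with earlier results of these data known. Interval functions were tested on simulated data. Python 3.11.15, numpy 2.4.6 and pandas 2.3.3 were used.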

Additional observations from a re-analysis of the deposited data

How the results depend on the processing

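The counts of Frizzled genes with a narrow region (4), an island (5) and both (4) stayed within 1.5 times under the alternatives run, except with wide islands only and with GRCm38 gene positions. With only islands at least as wide as the list's median, 3 members had an island (Fzd1, Fzd5 and Fzd9), and the share of all protein-coding genes fell to 10.8%, against 17.2% with all islands. When the midpoint had to lie in the gene or up to 5 kb upstream, 4 had an island, without Fzd9, and the share of all protein-coding genes was 13.2%. With every line counted, the 5 narrow regions became 21 lines. Regions widened by their rounding step put 5 of 5 in islands, in place of 4, with Fzd2 added. With islands required to cover the gene start, all 5 members stayed and the share of all protein-coding genes was 5.33%. With GRCm38 gene positions, 2 members in place of 5 had a region or island on the gene. The share of all protein-coding genes called in those positions was not counted, so this count has no background beside it. The last 2 alternatives were added once the data had been seen. No paired analysis was possible because neither list gives values by library, which also prevents leaving a library out. Neither list carries a score for a stricter threshold, and island width was used in its place. Unknown depth and the selection behind the island list limit what the 5 members with neither call can show: no call is not an absence of DNMT3B.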
